A study of Mus musculus with 5 samples.

Results

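The TNF receptor superfamily and its TRAF adaptors were examined in regulatory T (Treg) cells, a CD4 lineage set by the factor Foxp3 that holds other lymphocytes in check. The 10 genes were chosen by name, as 7 receptors known in Treg cells and 3 TRAF genes, out of 38130 gene entries per library, and all 10 were among the 11296 genes that passed the filter on low values (a mean of at least 1 over the libraries). RNA was sequenced from CD4+YFP+ cells of C57BL/6 mice. All groups, WT included, carry Foxp3-Cre-YFP, a transgene in which the Foxp3 locus drives Cre and a yellow fluorescent reporter in Treg cells. There were 5 libraries in 4 groups: Malt1 fl/fl mice at 21 days, with Malt1 deleted in Treg cells (labelled KO, 1 library), WT at 21 days (1 library), Malt1 fl/C472A mice at 6 weeks, where the labels say the protease function of Malt1 is blocked in Treg cells (KI, 2 libraries), and WT at 6 weeks (1 library). No label names the animal behind a library, so the spread of the KI pair may be technical. That pair is the only replication behind the p-values below, except where both WT libraries together served as control. KO and each WT age stand on 1 library, with no replicate to check them.

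Receptors of this family bind trimeric ligands of the TNF superfamily and carry no enzyme of their own. Most of those studied here recruit TRAF proteins to their cytoplasmic tails, which pass the signal to NF-kB and to MAP kinases, while Fas and Tnfrsf1a also carry a death domain. Malt1, the gene altered in KO and KI, encodes a paracaspase that acts between the T cell receptor and NF-kB and whose catalytic cysteine the C472A substitution replaces, and several genes of this family are known NF-kB targets. Treg cells are known for high levels of Tnfrsf4, Tnfrsf18 and Tnfrsf1b, which act as costimulatory receptors on them.

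The sequence before the start site is shown for 4 of the 10 genes, because the letters of an NF-kB site separate them. The kappaB consensus was searched on both strands in the 250 bases before each RefSeq start site (GRCm38.p6). It was found in 2 of 11 such windows of the 10 genes, one of the windows of Tnfrsf9 and that of Traf3, and in 3.90% of all 32851 windows. Capitals mark the match, which in Tnfrsf9 is a pair of overlapping matches. Tnfrsf4, which had the highest levels in KI, and Tnfrsf1b, which varied most between libraries, have no match in these windows. The RefSeq start sites of Tnfrsf4, Tnfrsf9, Tnfrsf18, Cd27 and Tnfrsf1a differ from the gene coordinates given below. For Tnfrsf4 the site is 156013695 and the gene as listed starts at 156013843, so the bases between them were not searched.
Tnfrsf9, chr4:150927749-150927998, plus strand: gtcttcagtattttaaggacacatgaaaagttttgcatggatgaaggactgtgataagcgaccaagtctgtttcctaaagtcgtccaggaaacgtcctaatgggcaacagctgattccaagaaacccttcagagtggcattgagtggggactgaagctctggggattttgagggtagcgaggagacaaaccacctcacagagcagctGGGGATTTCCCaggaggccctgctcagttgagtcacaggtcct
Traf3, chr12:111166120-111166369, plus strand: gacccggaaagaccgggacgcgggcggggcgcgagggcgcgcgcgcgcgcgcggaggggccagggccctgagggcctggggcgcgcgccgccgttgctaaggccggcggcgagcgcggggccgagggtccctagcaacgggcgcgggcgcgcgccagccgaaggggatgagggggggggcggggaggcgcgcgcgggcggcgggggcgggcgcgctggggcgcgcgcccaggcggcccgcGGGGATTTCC
Tnfrsf4, chr4:156013445-156013694, plus strand: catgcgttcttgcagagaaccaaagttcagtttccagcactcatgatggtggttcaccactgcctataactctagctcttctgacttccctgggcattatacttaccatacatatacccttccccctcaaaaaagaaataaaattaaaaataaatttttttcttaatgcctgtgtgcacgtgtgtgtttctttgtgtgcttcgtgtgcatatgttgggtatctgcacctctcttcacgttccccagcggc
Tnfrsf1b, chr4:145246871-145247120, minus strand: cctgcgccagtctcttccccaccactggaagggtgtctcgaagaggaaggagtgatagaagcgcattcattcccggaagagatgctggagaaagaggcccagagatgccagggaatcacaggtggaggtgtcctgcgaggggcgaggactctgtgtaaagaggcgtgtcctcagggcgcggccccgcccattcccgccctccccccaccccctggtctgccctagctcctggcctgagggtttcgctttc
The Traf3 match ends at the base before the start site and the Tnfrsf9 matches span 43 to 33 bases before it. The Traf3 window holds 85.2% G and C, against 49.6% in that of Tnfrsf9. The letters TTCNNNGAA, the core of sites that STAT proteins bind, were in 5 of the 11 windows (Tnfrsf9, Tnfrsf18, Tnfrsf1a, Tnfrsf1b and Fas, each a single match) and in 7.02% of all windows. A match describes these letters only.

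The deposited values are FPKM, fragments relative to transcript length and to all mapped fragments, each with bounds 2 standard errors below and above it. They were divided by a factor per library (0.868 to 1.15) and are called scaled FPKM, and the bounds were divided likewise. Depth, estimated from the bounds, was 24.5 to 28.1 × 10⁶ fragments in WT at 21 days and both KI libraries, and 6.88 to 7.79 × 10⁶ in WT at 6 weeks and KO. Each comparison within an age therefore runs across this split in depth, so the difference from the other WT library, which has similar depth and the other age, is given beside it. Malt1 itself had 17.6 scaled FPKM in the library labelled KO, between WT at 6 weeks with 15.2 and WT at 21 days with 27.0, so its level does not separate that library from WT. It had 55.9 and 37.8 in KI. A sum over the gene need not fall when some exons are deleted, and the files give no values per exon.

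The levels had a similar order in all libraries. Tnfrsf4, which encodes the costimulatory receptor OX40, was the highest of the 10 genes in 4 libraries, and Cd27 was the highest in WT at 6 weeks. Tnfrsf1a was the lowest in all 5. Tnfrsf4, Cd27 and Tnfrsf18 together made up 67.5% of the summed scaled FPKM of 28 receptor genes in KO, against 60.3% in WT at 21 days, while KI had 66.1% and 59.8%, against 61.0% in WT at 6 weeks. The 7 receptors made up 83.9% in KO, against 83.5% in WT at 21 days, while KI had 85.3% and 87.0%, against 81.2% in WT at 6 weeks. Among all tested genes, Tnfrsf4 lay between the percentiles 96.4 and 98.1 of level, and Tnfrsf1a between 39.4 and 55.1. Neighbours in the order could not be separated by their bounds for Cd27 and Tnfrsf18 in KO and both KI libraries, for Fas and Traf3 in every library but WT at 21 days, and for Tnfrsf9 and Tnfrsf1b in KO and WT at 6 weeks. The same was so for Traf2 and Fas in KO, Traf1 and Tnfrsf1b in WT at 21 days, Traf1 and Tnfrsf9 in KI replicate 2, and Traf3 and Tnfrsf1a in WT at 6 weeks.

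**Figure D1:**
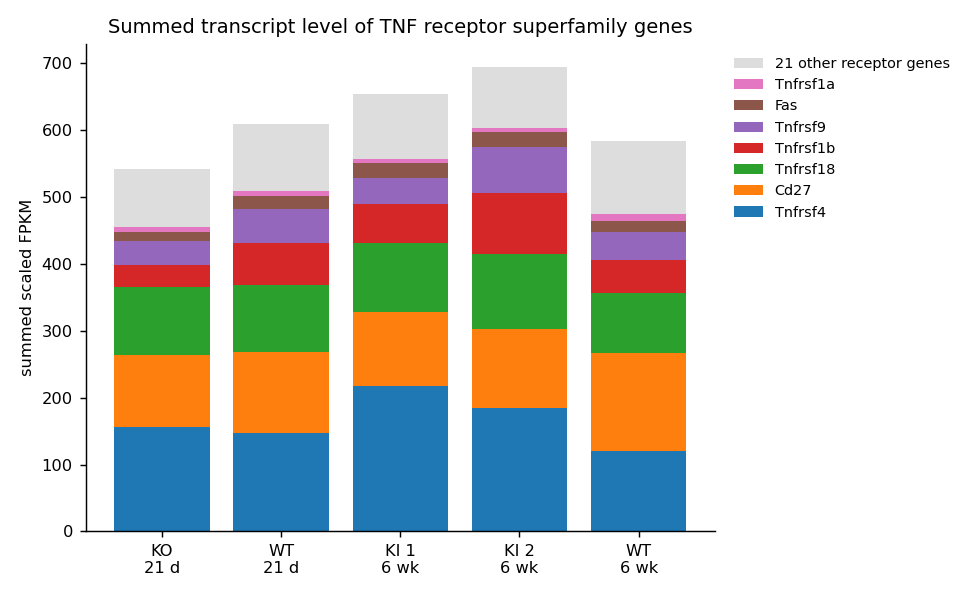
Summed scaled FPKM of TNF receptor superfamily genes (vertical axis) in each library (horizontal axis), with the 7 receptors as coloured segments and 21 other receptor genes in grey. Tnfrsf4, Cd27 and Tnfrsf18 form the lower 3 segments, with 59.8% to 67.5% of the sum.

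No gene of the 10 was past 2-fold in any comparison, and none passed the test that the KI pair allows. Against WT at 6 weeks, 0 of 10 were past 2-fold in both KI libraries, beside 5.81% of all tested genes. Against WT at 21 days, 0 of 10 were past 2-fold in KO, beside 14.3% of all tested genes, and the same count between WT at 6 weeks and WT at 21 days stood beside 8.56%. With the WT libraries exchanged, it was 0 of 10 in KI against WT at 21 days, beside 1.19%, and 0 of 10 in KO against WT at 6 weeks, beside 5.59%. Against both WT libraries at once the counts were 0 of 10 in KI, beside 0.629%, and 0 of 10 in KO, beside 3.11%. Shares of this size leave few of any 10 genes past 2-fold, so these counts stand near the background. In KI against WT at 6 weeks, limma with trend on log2(scaled FPKM + 1) called 0 of the 10 after Benjamini-Hochberg adjustment over all tested genes, 0 had an unadjusted p under 0.05, and the lowest adjusted p was 0.482. It called 1 of 11296 genes in all (0.00885%), the mitochondrial tRNA mt-Tp, which was listed at 0 in both KI libraries and in WT at 21 days, and 10.7% had an unadjusted p under 0.05. Its spread rests on 1 residual degree of freedom, that of the KI pair, and limma moderates it toward a trend over all tested genes. Each SE below is therefore not the KI spread of that gene alone. The single WT library is taken to vary like KI.

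Smaller differences were set against the authors' bounds, which hold counting error and not the spread between animals. In 7 of the 10 genes the bounds of both KI libraries lay clear of those of WT at 6 weeks, 5 higher and 2 lower, beside 16.0% and 13.0% of all tested genes. With FPKM as deposited the count was 3, of Tnfrsf4 higher and of Cd27 and Traf2 lower, and with an upper-quartile factor it was 6. Shares of all tested genes are not given for these other scalings, here or below, so their counts have no background beside them. Against WT at 21 days, which has similar depth, 2 were clear in KI (Tnfrsf4 and Traf3, both higher), beside 5.86% higher and 6.95% lower of all tested genes. The same 2 were clear of both WT libraries at once, beside 3.23%. In KO, 6 were clear of WT at 21 days, 1 higher and 5 lower, beside 24.5% and 27.2%, but with FPKM as deposited 5 were higher and 1 lower. Against WT at 6 weeks, 4 were clear in KO, 1 higher and 3 lower, beside 10.1% and 12.0%. Tnfrsf1b, Cd27 and Traf3 were below both WT libraries at once in KO, beside 8.25%, but with an upper-quartile factor Tnfrsf1b alone was, and with FPKM as deposited Tnfrsf1b was below and Tnfrsf4 above them. Between WT at 6 weeks and WT at 21 days 5 were clear, 2 higher and 3 lower, beside 18.6% and 23.0%, and with FPKM as deposited 6 were higher and 0 lower. Within their own age, the bounds lay apart under all 3 scalings for Tnfrsf4 (higher) and for Cd27 and Traf2 (lower) in KI. In KO they did so, in the same direction each time, for Traf2 (higher) and Tnfrsf1b (lower).

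**Figure D2:**
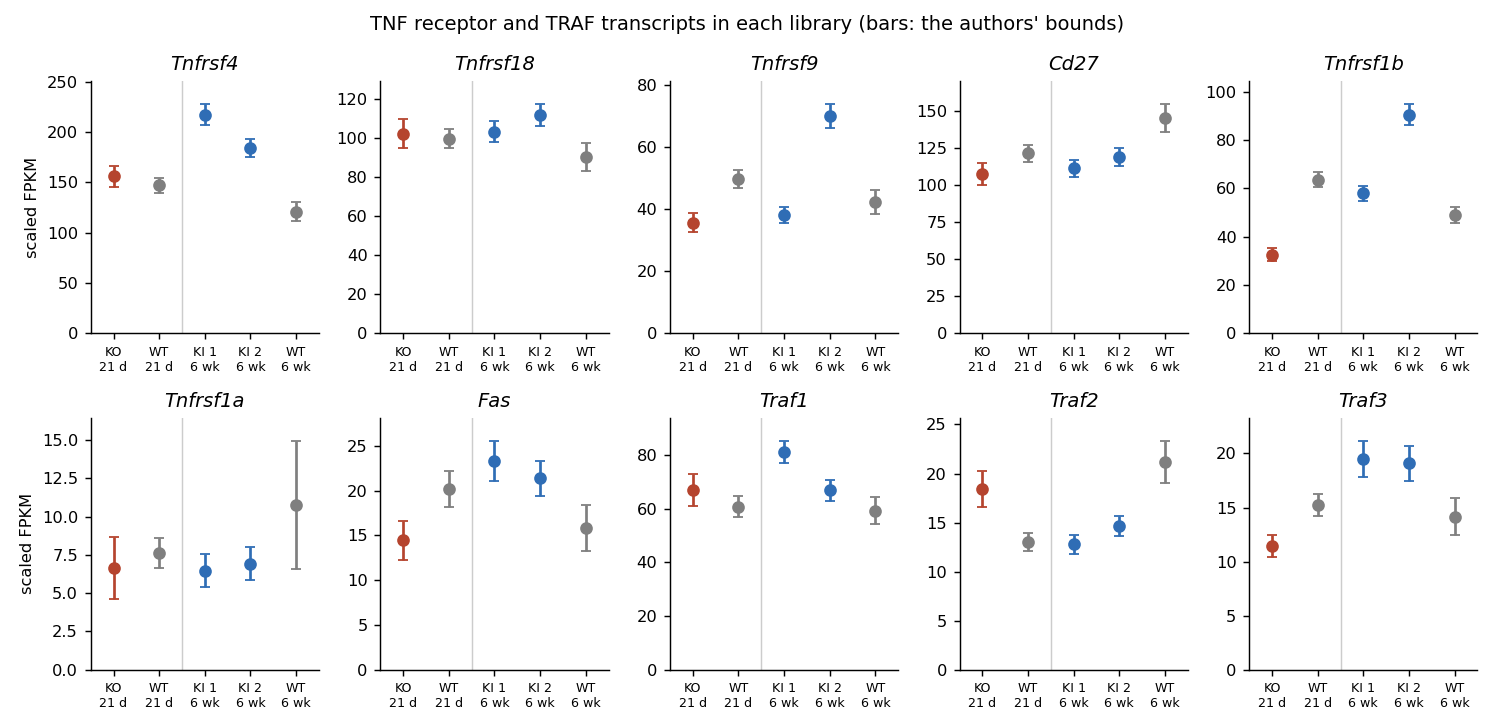
Scaled FPKM (vertical axes, from 0) of the 10 genes in each library (horizontal axes), with bars for the authors' lower and upper bounds. Tnfrsf4 stands at 218 and 184 in KI, above both WT libraries, and Tnfrsf1b at 32.6 in KO, below them.

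Tnfrsf4 (ENSMUSG00000029075, chromosome 4, 156013843 to 156016612, GRCm38) was higher in KI than in either WT library. It had 156 scaled FPKM in KO, against 147 in WT at 21 days, while KI had 218 and 184, against 121 in WT at 6 weeks. The KI libraries were the highest, and with this scaling their bounds (207 to 228 and 175 to 194) did not reach those of any other library. With FPKM as deposited, KI had 189 and 187 and KO had 179, and the bounds of KO overlapped those of KI. The mean in KI was 201 ± 23.5 (SD, n = 2), which was 1.66 times the level of WT at 6 weeks. The log2 difference was 0.72 (SE 0.272, 95% interval -0.088 to 1.53), with an adjusted p of 0.482 in limma, and 0.44 against WT at 21 days (adjusted p = 1 in limma). KI stayed clear of both WT libraries with FPKM as deposited. In KO the log2 difference was 0.085 from WT at 21 days, where the bounds overlapped, and 0.37 from WT at 6 weeks. With FPKM as deposited that from WT at 21 days was 0.47, with bounds apart. In bulk samples, a smaller share of cells with a transcript and less of it per cell cannot be told apart, here and in all results that follow.

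Tnfrsf18 (chromosome 4, 156026164 to 156028895), which encodes the costimulatory receptor GITR, lies 9.55 kb from Tnfrsf4 on the same strand and varied least of the 10. It had 102 scaled FPKM in KO, against 99.5 in WT at 21 days, while KI had 103 and 112, against 90.0 in WT at 6 weeks. All 5 libraries lay within 1.24-fold of each other. KI differed from WT at 6 weeks by a log2 value of 0.25 (SE 0.229, 95% interval -0.43 to 0.93, adjusted p = 0.689 in limma), and it was -0.04 with FPKM as deposited. The antisense gene Gm16008 overlaps 27.2% of its exon bases, and since the strand setting is not given in the sources used here, reads of the pair may not be separable. Gm16008 had 1.56 in KO, against 6.58 in WT at 21 days, while KI had 11.2 and 8.46, against 2.05 in WT at 6 weeks.

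Tnfrsf9 (chromosome 4, 150914562 to 150946102), which encodes the activation-induced costimulatory receptor 4-1BB, differed more between the KI libraries than between KI and WT. It had 35.6 scaled FPKM in KO, against 49.8 in WT at 21 days, while KI had 38.0 and 70.0, against 42.3 in WT at 6 weeks. KI replicate 2 was the highest of all libraries, while KI replicate 1 lay below both WT libraries. The KI libraries differed by 1.84-fold, and 9.31% of all tested genes differed more between them on the log2 scale. The log2 difference from WT at 6 weeks was -0.15 in KI replicate 1 and 0.71 in replicate 2, with a fitted 0.28 (SE 0.457, 95% interval -1.08 to 1.65, adjusted p = 0.821 in limma). In KO it was -0.47 from WT at 21 days, with bounds apart, and -0.24 from WT at 6 weeks, with bounds that met.

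Cd27 (chromosome 6, 125232622 to 125237010), a receptor of naive and memory T cells that binds Cd70, was highest in WT at 6 weeks. It had 108 scaled FPKM in KO, against 121 in WT at 21 days, while KI had 111 and 119, against 145 in WT at 6 weeks. Its 5 libraries lay within 1.35-fold. In KI the log2 difference was -0.33 from WT at 6 weeks (SE 0.235, 95% interval -1.04 to 0.37, adjusted p = 0.619 in limma) and -0.077 from WT at 21 days. In KO it was -0.17 and -0.43 from WT at 21 days and WT at 6 weeks, and with FPKM as deposited KO lay above WT at 21 days. Vamp1 overlaps Cd27 on the opposite strand, without shared exon bases.

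Tnfrsf1b (chromosome 4, 145213463 to 145246870), which encodes the TNF receptor TNFR2, had the widest range of the 10, with the library labelled KO at its low end. It had 32.6 scaled FPKM in KO, against 63.7 in WT at 21 days, while KI had 58.0 and 90.6, against 49.1 in WT at 6 weeks. KO lay below all other libraries with bounds of 30.0 to 35.1, and it was clear of both WT libraries with all 3 scalings. KO had 0.512 times the level of WT at 21 days and 0.664 times that of WT at 6 weeks, or log2 differences of -0.95 and -0.58. A limma fit of the 4 group means, whose only replicates are the KI pair, gave an adjusted p of 0.518 for KO against WT at 21 days. The KI libraries differed by 1.56-fold from each other, more than KI replicate 1 differed from either WT library. The fitted log2 difference of KI from WT at 6 weeks was 0.55 (SE 0.366, 95% interval -0.54 to 1.65, adjusted p = 0.602 in limma), and it was -0.13 and 0.50 from WT at 21 days in the 2 replicates. The Treg markers given below were also lower in sum in KO than in either WT library, though not each of them was. Their part in the Tnfrsf1b values was not tested.

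Tnfrsf1a (chromosome 6, 125349362 to 125362484), which encodes the death domain receptor TNFR1, was low throughout and measured with the least precision. It had 6.63 scaled FPKM in KO, against 7.64 in WT at 21 days, while KI had 6.48 and 6.93, against 10.8 in WT at 6 weeks. WT at 6 weeks was the highest, but its bounds of 6.61 to 15.0 reached those of every other library. The squared ratio of its value to its standard error was about 27. KI lay below WT at 6 weeks, at a log2 difference of -0.61 (SE 0.294, 95% interval -1.49 to 0.26, adjusted p = 0.519 in limma) and that from WT at 21 days -0.17. Tnfrsf1b exceeded Tnfrsf1a, in FPKM, by 4.91-fold in KO, against 8.34-fold in WT at 21 days, while KI had 8.95-fold and 13.1-fold, against 4.55-fold in WT at 6 weeks.

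Fas (chromosome 19, 34290659 to 34327770), a death receptor that limits expansion of activated T cells, was higher in KI than in WT at 6 weeks. It had 14.5 scaled FPKM in KO, against 20.2 in WT at 21 days, while KI had 23.3 and 21.4, against 15.8 in WT at 6 weeks. The KI libraries and WT at 21 days overlapped in their bounds, as did KO and WT at 6 weeks, so the 3 deeper libraries were the higher ones, although the bounds of the WT libraries met each other. The difference of KI, as log2, was 0.47 from WT at 6 weeks (SE 0.235, 95% interval -0.23 to 1.17, adjusted p = 0.532 in limma) and 0.14 from WT at 21 days. That of KO was -0.45 from WT at 21 days and -0.12 from WT at 6 weeks. The part of depth in this pattern was not tested.

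**Figure D3:**
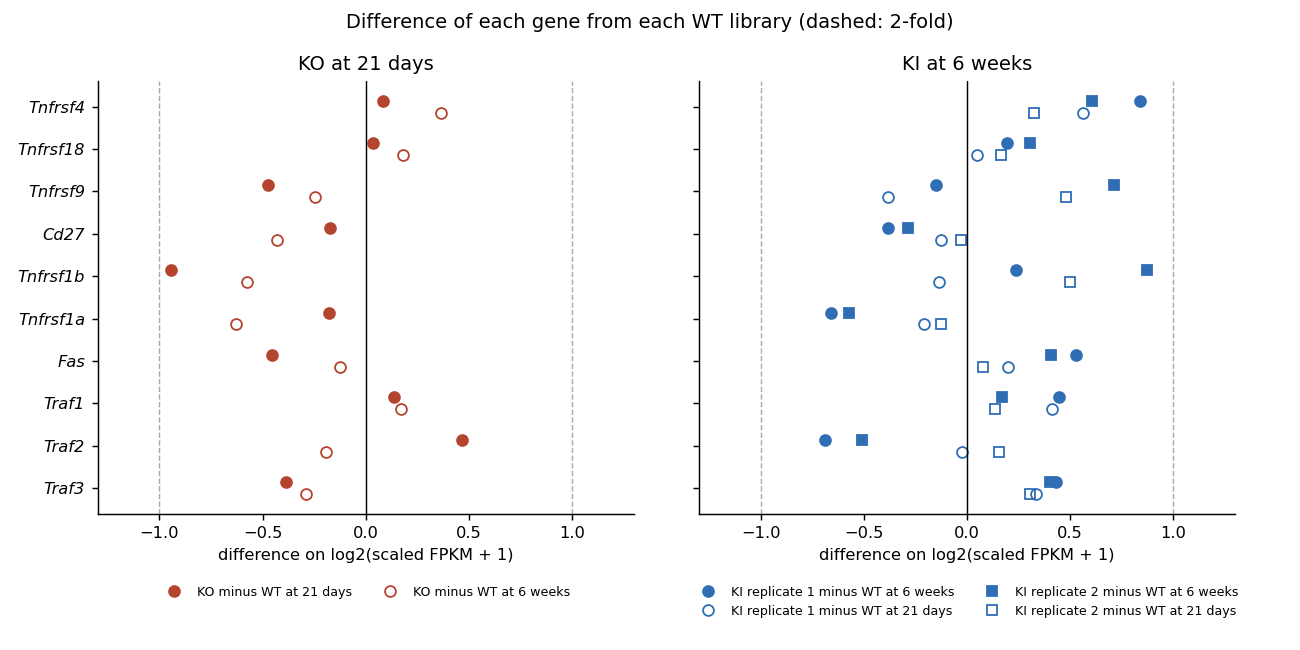
Difference of each gene on log2(scaled FPKM + 1) (horizontal axis) from the WT library of the same age (filled) and from the other WT library (open), for KO on the left and for the 2 KI libraries on the right. All points lie inside the dashed lines at 2-fold, and the KI libraries stand apart for Tnfrsf9 and Tnfrsf1b.

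The 3 TRAF genes did not share a pattern. Traf1 (chromosome 2, 34941750 to 34961772), an adaptor induced on lymphocyte activation, had 67.0 scaled FPKM in KO, against 60.7 in WT at 21 days, while KI had 81.1 and 66.8, against 59.3 in WT at 6 weeks. KI replicate 1 was the highest, and the bounds of KI replicate 2 overlapped those of both WT libraries. The log2 difference of KI from WT at 6 weeks was 0.31 (SE 0.249, 95% interval -0.44 to 1.05, adjusted p = 0.658 in limma) and that of KO from WT at 21 days 0.14.

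Traf2 (chromosome 2, 25517982 to 25546940), an adaptor that brings cIAP ubiquitin ligases to the receptors, followed the split in depth. It had 18.4 scaled FPKM in KO, against 13.0 in WT at 21 days, while KI had 12.8 and 14.6, against 21.2 in WT at 6 weeks. KO and WT at 6 weeks were the 2 highest libraries, with bounds that overlapped each other and none of the others. The log2 difference of KI was -0.60 from WT at 6 weeks (SE 0.256, 95% interval -1.36 to 0.17, adjusted p = 0.496 in limma), and it turned to 0.065 against WT at 21 days. That of KO was 0.47 from WT at 21 days and -0.19 from WT at 6 weeks. Between WT at 6 weeks and WT at 21 days the log2 difference was 0.66, the largest of the 10 genes. The part of depth in this pattern was not tested.

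Traf3 (chromosome 12, 111166370 to 111267153), which holds the noncanonical NF-kB kinase Map3k14 in check, was highest in KI and lowest in KO. It had 11.4 scaled FPKM in KO, against 15.2 in WT at 21 days, while KI had 19.5 and 19.1, against 14.2 in WT at 6 weeks. The KI bounds (17.8 to 21.2 and 17.5 to 20.7) and the KO bounds (10.4 to 12.4) lay clear of both WT libraries. With FPKM as deposited Traf3 was clear of both WT libraries in neither, and with an upper-quartile factor it was clear of both WT libraries in KI only. The mean in KI was 19.3 ± 0.285 (SD, n = 2), 1.36 times the level of WT at 6 weeks, with a log2 difference of 0.42 (SE 0.236, 95% interval -0.28 to 1.12, adjusted p = 0.564 in limma) and of 0.32 from WT at 21 days. KO lay at -0.39 from WT at 21 days and -0.29 from WT at 6 weeks. Of the 10 genes, Fas came nearest to Traf3 in its pattern over libraries, with a root mean square difference of 0.0909 (log2).

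The spread of the 10 genes over libraries was close to that of genes in general. The range from the lowest to the highest library had a median of 0.67 (log2) over the 10 genes, beside 0.75 over all tested genes. It reached 1, which is 2-fold, in 1 of 10, Tnfrsf1b, beside 30.7% of all tested genes. For Tnfrsf1b, the 5 genes of most similar pattern, out of 5488 at a mean of at least 10, were Uhmk1, Pds5a, Etnk1, Tank and Pbrm1. Their deviations from their own means differed from those of Tnfrsf1b by 0.0753 to 0.0993 (root mean square over 5 libraries, log2). Tank, a TRAF-binding protein, had 25.5 scaled FPKM in KO, against 45.1 in WT at 21 days, while KI had 41.9 and 59.7, against 33.0 in WT at 6 weeks.

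**Figure D4:**
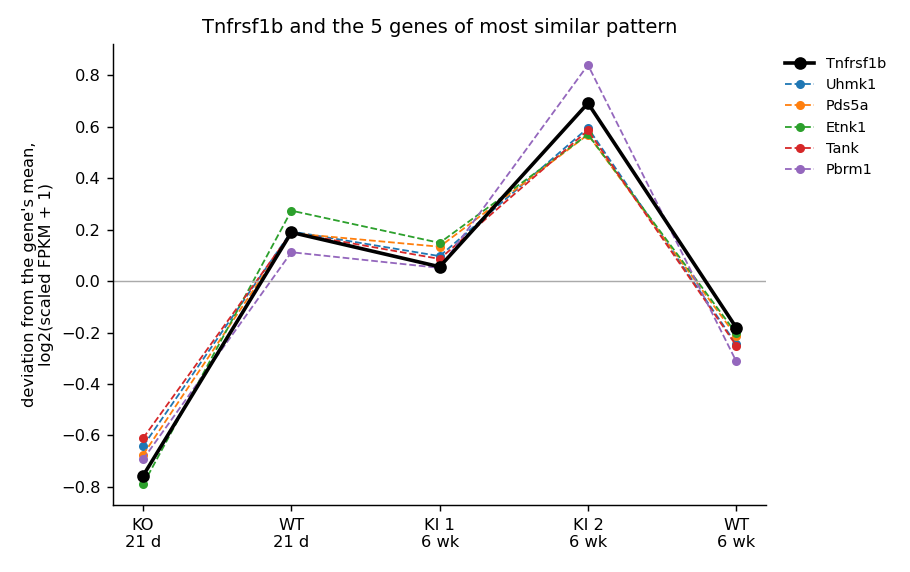
Deviation of Tnfrsf1b (black) and of the 5 genes of most similar pattern (dashed) from their own mean on log2(scaled FPKM + 1) (vertical axis) in each library (horizontal axis). All 6 lines are lowest in KO and highest in KI replicate 2.

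Of 17 ligand genes of the superfamily, 7 had a mean below 1 in the sorted cells. Tnfsf18, the ligand of the Tnfrsf18 receptor, was listed at 0 in every library, Tnfsf4, the ligand of the Tnfrsf4 receptor, had at most 0.643 scaled FPKM, and Cd70 at most 0.399. Tnfsf9, the ligand of the Tnfrsf9 receptor, had 3.29 in KO, against 1.47 in WT at 21 days, while KI had 3.03 and 1.48, against 1.47 in WT at 6 weeks. Tnf, which binds the receptors of Tnfrsf1a and Tnfrsf1b, had 10.6 in KO, against 8.54 in WT at 21 days, while KI had 10.01 and 7.75, against 18.4 in WT at 6 weeks. Fasl, the ligand of Fas, had 5.26 in KO, against 3.54 in WT at 21 days, while KI had 6.15 and 2.27, against 2.89 in WT at 6 weeks. Of 10 tested ligand genes, 0 were past 2-fold higher and 2 were past 2-fold lower in KI (both libraries) than in WT at 6 weeks, beside 3.01% and 2.80% of all tested genes. The 2 were Cd40lg, the ligand of CD40 on antigen-presenting cells, and Tnfsf14, a ligand of the receptors Tnfrsf14 and Ltbr.

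Cd40lg had 21.6 scaled FPKM in KO, against 12.2 in WT at 21 days, while KI had 5.04 and 5.09, against 16.6 in WT at 6 weeks. The KI libraries were the lowest and KO was the highest. In KI the log2 value differed by -1.53 from WT at 6 weeks (SE 0.293), with an adjusted p of 0.393 in limma, and -1.13 from WT at 21 days. Tnfsf14 had 8.95 in KO, against 4.77 in WT at 21 days, while KI had 2.16 and 2.29, against 6.16 in WT at 6 weeks. It lay in the same order, with log2 differences of KI of -1.15 from WT at 6 weeks (SE 0.296, adjusted p = 0.449 in limma) and -0.84 from WT at 21 days. Ltb, which forms lymphotoxin with Lta, was the highest ligand gene, at 282 in KO, against 320 in WT at 21 days, while KI had 276 and 281, against 319 in WT at 6 weeks.

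Among the 21 other receptor genes, 10 of 22 entries were tested (Tnfrsf22 has 2), and Tnfrsf11b, Tnfrsf17, Edar and Eda2r were listed at 0 throughout. In KI against WT at 6 weeks 0 of the tested entries were past 2-fold in both libraries, beside 5.81% of all tested genes. In KO against WT at 21 days 1 was past 2-fold higher and 1 lower, beside 6.13% and 8.14%. The lower one was Tnfrsf10b, a TRAIL receptor, at 1.20 in KO, against 5.18 in WT at 21 days, while KI had 4.47 and 1.91, against 1.78 in WT at 6 weeks. The higher one was an entry of Tnfrsf22, at 3.27 in KO, with WT at 21 days listed at 0 and WT at 6 weeks at 1.81. The KI replicates had 0.793 and 0.0001 for this entry. The other tested Tnfrsf22 entry was lower in KO, at 2.33, than in WT at 21 days, at 4.49 (log2 difference -0.72). The entries of Tnfrsf22 thus did not share a direction. Neither Tnfrsf10b nor the higher Tnfrsf22 entry was past 2-fold from WT at 6 weeks, the library of similar depth. Their log2 differences there were -0.34 for Tnfrsf10b and 0.61 for that Tnfrsf22 entry. These genes, like the others that follow from KO against 1 WT library, were chosen after their values were seen. The median log2 difference of the tested other receptors was 0.0100 in KI and -0.18 in KO. Against the other WT library it was -0.13 in KI and -0.076 in KO. Tnfrsf25, which encodes the death receptor DR3, was the highest of them in all libraries but KI replicate 2, where Tnfrsf13b had 26.7. Tnfrsf25 had 26.2 in KO, against 26.8 in WT at 21 days, while KI had 27.1 and 20.8, against 43.2 in WT at 6 weeks. Tnfrsf12a, the receptor for TWEAK, differed between the KI libraries, at 11.4 and 2.05, against 1.11 in WT at 6 weeks.

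Of the 14 other TRAF and adaptor genes, 0 were past 2-fold in KI or in KO against the WT library of the same age, beside 5.81% and 14.3% of all tested genes. Their median log2 difference was -0.0208 in KI and -0.10 in KO, and 0.11 and -0.072 against the other WT library. Of the 17 ubiquitin and kinase regulators, 1 was past 2-fold higher in both KI libraries, beside 3.01% of all tested genes, and 2 were past 2-fold lower in KO, beside 8.14%. These counts stand near the background, and the medians were 0.50 and -0.067. Against the other WT library, which has similar depth, the medians were 0.044 in KI and 0.0066 in KO. The regulator past 2-fold in KI was Tab3, a subunit of the TAK1 kinase complex, with 1.95 in KO, against 5.08 in WT at 21 days, while KI had 5.78 and 5.34, against 1.93 in WT at 6 weeks, so it followed the split in depth. Its log2 difference in KI was 1.16 from WT at 6 weeks (SE 0.308, adjusted p = 0.453 in limma) and 0.11 from WT at 21 days. Tab3 was also among the 2 lower in KO, with Tnfaip3, which encodes the NF-kB inhibitor A20. Tnfaip3 had 190 in KO, against 795 in WT at 21 days, while KI had 864 and 228, against 218 in WT at 6 weeks, so the KI libraries did not share a level, and KO differed from WT at 6 weeks by -0.20 (log2). Of the 12 NF-kB subunits and inhibitors, 0 were past 2-fold in both KI libraries, beside 5.81% of all tested genes. In KO, 1 was past 2-fold lower, beside 8.14%, and both counts are near the background. The medians were 0.23 in KI and -0.19 in KO, and 0.15 and 0.14 against the other WT library. The gene lower in KO was Rel, which encodes the subunit c-Rel, at 4.64 in KO, against 46.5 in WT at 21 days, while KI had 40.5 and 16.2, against 7.79 in WT at 6 weeks, from which KO differed by -0.64 (log2). The 10 receptors and TRAF genes themselves had medians of 0.29 in KI and -0.18 in KO, beside -0.0045 and 0.0163 over all tested genes. Against the other WT library their medians were 0.12 in KI and -0.22 in KO, beside 0.0 and -0.0101 over all tested genes. In KI, limma called 0 genes of the 5 other lists. Across the 63 tested genes of those 5 lists, 6 higher and 5 lower in KI had an unadjusted p under 0.05 in limma, which is 17.5%, beside 10.7% of all tested genes.

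**Figure D5:**
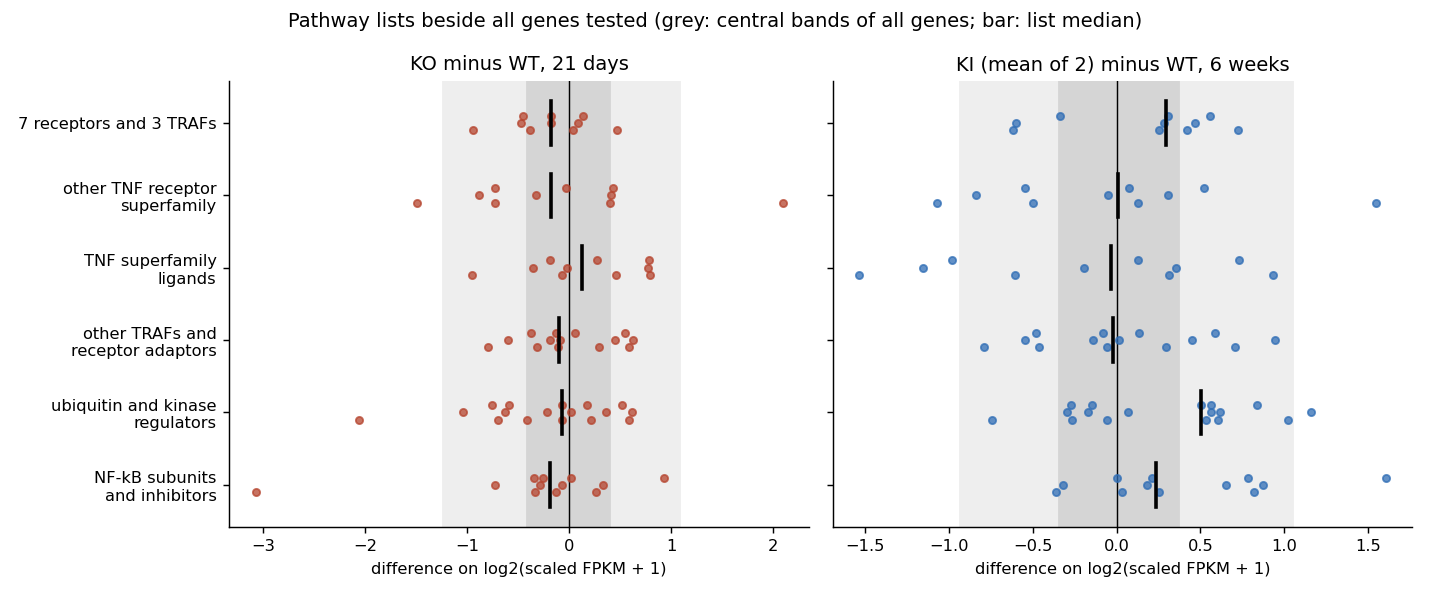
Difference on log2(scaled FPKM + 1) (horizontal axis) of each tested gene from the WT library of the same age, for KO on the left and the KI mean on the right, by list (rows), with a black bar at each list's median. Grey bands hold the central 50% and 90% of all tested genes, and the medians of the 10 receptors and TRAF genes are -0.18 in KO and 0.29 in KI.

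Markers of the sorted cells and of other cell types also differed between libraries, and their part in the results above was not tested. Foxp3, which defines Treg cells, had 30.5 scaled FPKM in KO, against 70.7 in WT at 21 days, while KI had 70.1 and 73.6, against 39.5 in WT at 6 weeks. The sum of the 8 Treg markers, none of them at 0, came to 353 in KO, against 788 in WT at 21 days, while KI had 905 and 839, against 419 in WT at 6 weeks. Foxp3 and this sum thus followed the split in depth. The median log2 difference of these markers in KI was 0.89 from WT at 6 weeks and 0.19 from WT at 21 days. In KO it was -0.93 from WT at 21 days and -0.34 from WT at 6 weeks. The part of depth in this pattern was not tested. Ikzf2, which encodes the Treg factor Helios, was past 2-fold lower in KO than in both WT libraries, at 15.4, against 68.0 in WT at 21 days and 36.3 at 6 weeks. Lrrc32, which encodes GARP, was past 2-fold higher in KI than in WT at 6 weeks, at 136 and 115, against 35.6. The 8 pan T cell markers summed to 2173 in KO, against 2144 in WT at 21 days, while KI had 1515 and 1890, against 2733 in WT at 6 weeks. WT at 6 weeks, where Cd27, Tnfrsf1a and Traf2 were highest, also had the highest sum of all marker lists but those of Treg and plasma cells. Markers past 2-fold lower in both KI libraries than there were the B cell genes Cd79a, Cd79b, Ms4a1 and Cd22, Mzb1 of plasma cells, the myeloid genes Tyrobp, Cd68 and Csf1r, Klrd1 of NK cells, the hemoglobin genes Hba-a1, Hba-a2 and Hbb-bt, and all 5 plasmacytoid dendritic cell genes found, among them Siglech, Ly6d, Spib and Bst2. In KO, Ms4a1, Cd79a and Hba-a1 were past 2-fold below both WT libraries. The 7 B cell markers summed to 9.07 in KO, against 17.8 in WT at 21 days, while KI had 4.39 and 3.22, against 25.4 in WT at 6 weeks. All 9 myeloid markers were highest in WT at 6 weeks, with a sum of 180 in KO, against 181 in WT at 21 days, while KI had 194 and 158, against 292 in WT at 6 weeks. So were all 5 plasmacytoid dendritic cell markers found in the files, with 40.7 in KO, against 36.5 in WT at 21 days, while KI had 20.6 and 27.2, against 116 in WT at 6 weeks. Erythroid and platelet markers summed to 2.51 in KO, against 6.60 in WT at 21 days, while KI had 28.1 and 3.13, against 54.5 in WT at 6 weeks. Over all 5 libraries, sums ranged from 1.43 to 6.14 for NK cell, from 5.79 to 13.6 for CD8 T cell and thymocyte, from 37.5 to 65.4 for plasma cell, and from 27.6 to 37.3 for stromal and epithelial markers, of which Krt8 was listed at 0 throughout. Xbp1, at 30.8 to 62.3, made up most of the plasma cell sum in each library.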

How the data were processed

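RNA of 5 libraries was analysed from 1 table of gene values per library. Per the submitters' processing notes the authors used CASAVA, HISAT2 2.1.0 and Cufflinks 2.2.1 on GRCm38, with no order or settings given, and per the file headers the deposited values are FPKM per gene with a lower and an upper bound. The strand setting, read type and annotation release are not given in these sources. FPKM hold no counts, so the depth was estimated from the bounds over single-transcript protein-coding genes of at least 2 kb (186 to 213 genes a library). For each gene the squared ratio of its value to its standard error was divided by its FPKM and its length in kb. The depth is the median over these genes, and it takes the squared ratio as an approximation of the fragments behind a value.

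Each library was scaled by the median ratio of its FPKM to the geometric mean, over 9874 genes at 1 or more in all 5. Tests took genes whose scaled FPKM averaged at least 1, on log2(scaled FPKM + 1), a scale that understates changes of low genes. For KI against WT at 6 weeks, limma 3.58.1 (R 4.3.3) was fitted with trend as a two-sided test, and p-values were adjusted by Benjamini-Hochberg, with calls under 0.05. Comparisons with 1 library a group were described by size (2-fold) and by bounds that lay apart. All 10 members are named. From each list the genes past 2-fold in both KI libraries, or in KO against both WT libraries, are named, at most 4 a list, and others that the text names were chosen after their values were seen. Similar patterns were sought for the member of widest range. Alternatives were other scalings, pseudocounts, filters, controls and samples left out. The members, the 5 pathway lists and the 10 marker lists were chosen with earlier results of these data known. List genes were matched by symbol, and Irf8 was not analysed here. Python 3.11.15 was used for tables and figures.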

Additional observations from a re-analysis of the deposited data

How the results depend on the processing

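No paired analysis was possible because no label pairs the libraries, and KO and each WT age have 1 library. The counts of members past 2-fold and of members called by limma stayed at 0 under every alternative run, except that Traf2 (1 member) was past 2-fold between WT at 6 weeks and WT at 21 days with FPKM as deposited. The lowest adjusted p of a member in KI ranged from 0.379 to 1 over the limma alternatives. With FPKM as deposited the median of all genes moved to -0.26 in KI against WT at 6 weeks, 0.35 in KO against WT at 21 days and 0.35 between the WT ages, and Tnfrsf9 and Tnfrsf18 reversed in KI (-0.0053 and -0.0403). The log2 difference of Tnfrsf9 was also reversed without KI replicate 2 (-0.15, and 0.71 without replicate 1), and that of Traf2 against WT at 21 days (0.0647). Of 260 alternative values of single members, 14 changed sign. Of these, 11 came with FPKM as deposited, 2 in KO against WT at 21 days (Tnfrsf1a and Cd27), 7 between the WT ages (all but Tnfrsf1a, Cd27 and Traf2) and 2 in KI. The other 3 were Tnfrsf9 without KI replicate 2 and Traf2 in KI and in KO with the WT libraries exchanged.

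Members with bounds apart numbered 7 in KI against WT at 6 weeks, 5 higher and 2 lower, beside 16.0% and 13.0% of all tested genes. With WT at 21 days as control they numbered 2, both higher, beside 5.86%. They numbered 3 with FPKM as deposited, and 8 when KI replicate 1 or KI replicate 2 was left out. In KO they numbered 6, 1 higher and 5 lower, beside 24.5% and 27.2%. With WT at 6 weeks as control they numbered 4, 1 higher and 3 lower, beside 10.1% and 12.0%. In KI against both WT libraries they numbered 2, both higher, beside 3.23%. There they numbered 1 with FPKM as deposited, 5 without replicate 1 and 3 without replicate 2. In KO against both they numbered 3, all lower, beside 8.25%. There they numbered 2 with FPKM as deposited and 1 with an upper-quartile factor. Shares of all tested genes are not given for the other scalings or with a replicate left out, so those counts have no background beside them.

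Counts of all genes past 2-fold depended more on the settings. In KI against WT at 6 weeks there were 656, 1055 with a pseudocount of 0.1, 323 at a mean of at least 5, 384 protein-coding genes, 134 with WT at 21 days as control, and 1260 to 1492 without 1 replicate. In KO against WT at 21 days there were 1613, 934 at a mean of at least 5 and 632 with WT at 6 weeks as control. With FPKM as deposited the splits were 211 higher and 545 lower in KI, against 340 and 316, and 1526 higher and 483 lower in KO, against 693 and 920. Between the WT ages 967 became 1498 with a pseudocount of 0.1, 528 at a mean of at least 5 and 525 protein-coding genes. In KI against both WT libraries 71 became 140, 29 and 47 under the same 3 settings and 267 to 291 without 1 replicate, and in KO against both 351 became 610, 138 and 217. Genes called by limma numbered 1, 50 with a pseudocount of 0.1, 25 at a mean of at least 5, 15 among protein-coding genes, and 0 with an upper-quartile factor, with no filter or with WT at 21 days as control. Fewer genes enter under the stricter filters, and the cause of the other shifts was not tested. Of the 10 genes, Tnfrsf1a had the lowest squared ratio of a value to its standard error in every library. This ratio was about 27 in WT at 6 weeks and 43 in KO, and it is a measure of precision, not a count of fragments.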
